A study of Homo sapiens with 8 samples.

Results

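MYC, its neighbouring long noncoding RNAs CASC11 and PVT1, its paralogs MYCN and MYCL, and the partner and antagonist genes MAX, MXI1, MXD1, MXD4 and MNT were followed in SP and NSP cells of J82. These 10 genes were taken by symbol from the 57820 genes of the count table. J82 is an established cell line from a human bladder carcinoma. Cell sorting after Hoechst dye staining gave SP (side population) cells, which retain little dye and are studied as a drug-resistant fraction, and NSP (non-side population) cells, which retain it. There were 4 SP and 4 NSP libraries, all from J82 grown in DMEM with serum, and no drug treatment is named for them. The sort is the one difference named between the groups, and the labels do not say whether the replicates came from separate cultures or sorts. If they did not, the p-values measure technical spread alone.

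MYC is a basic helix-loop-helix leucine zipper transcription factor that drives ribosome biogenesis, metabolism and cell cycle entry and is often amplified or overexpressed in carcinomas. It binds the E-box of its target promoters only as a heterodimer with MAX. The MXD proteins, MXI1 and MNT compete for MAX and recruit the SIN3 corepressors to the same E-boxes, so the relative amounts of these factors, and not of MYC alone, set the output of the network. In bulk RNA, fewer cells that express a gene and less RNA per cell cannot be told apart.

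The libraries held 1431823 to 2073526 counts, far fewer than the raw reads per sample that the study states. Why most reads are not in the counts was not tested. Levels are given as CPM, counts scaled to a common library size, and their precision is limited by the counts behind them. Of the 10 genes, 9 had at least 1 count and 5 had enough counts for the test across genes. Marker genes of several cell types were read, which cannot establish the identity of a cell line. Of 5 epithelial markers, the keratins KRT8 and KRT18 were high (3298 and 404 CPM in SP cells, 4022 and 435 in NSP cells). Their exons share 525 bp on opposite strands. KRT19 was lower, at 28.0 CPM in SP and 34.1 CPM in NSP cells, and CDH1 had 24 and EPCAM 3 counts in all. Of 9 urothelial genes KRT20, UPK3A and TP63 were at 0 in every library. The urothelial gene UPK2 had 253 counts (20.7 CPM in SP and 17.8 CPM in NSP, not called), PPARG 57, GATA3 34 and UPK1B 13. Summed leukocyte markers reached at most 13 CPM in SP and 10.6 CPM in NSP libraries, with PTPRC and CD3E at 0, and summed endothelial markers at most 1.28 CPM. Summed mesenchymal markers had 325 to 502 CPM in SP and 548 to 917 CPM in NSP libraries. Most of that sum was VIM, the intermediate filament vimentin (315 against 534 CPM, log2 fold change -0.76, adjusted p = 0.0784 by edgeR, not called). Exons of the other strand cross 24.6% of the exon length of VIM. Of the 6 markers 1 was called, FN1, which encodes fibronectin and was lower in SP cells (40.1 against 95.5 CPM), and ZEB2 had a positive value (0.52, not called). The part of these markers in the results below was not tested.

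MYC expression was higher on average in SP cells, but it did not pass the test in the unpaired comparison of the groups. The gene lies on the plus strand of chromosome 8 of GRCh37, from 128747680 to 128755197. The SP libraries 1 to 4 had 46.1, 101.9, 108.3 and 72.9 CPM and the NSP libraries 1 to 4 had 44.2, 57.3, 60.0 and 53.2 CPM, from 64 to 200 and from 77 to 116 counts. SP replicate 1 lay within the NSP range, and the other 3 SP libraries lay above every NSP library. The mean was 82.3 ± 28.6 CPM in SP against 53.7 ± 6.91 CPM in NSP cells (SD, 4 libraries). MYC had a log2 fold change of 0.62 (SE, the standard error, 0.23, 95% interval 0.14 to 1.11, adjusted p = 0.169 by edgeR), and an exact permutation test, two-sided, on log2(CPM + 1) gave p = 0.143.

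**Figure D1:**
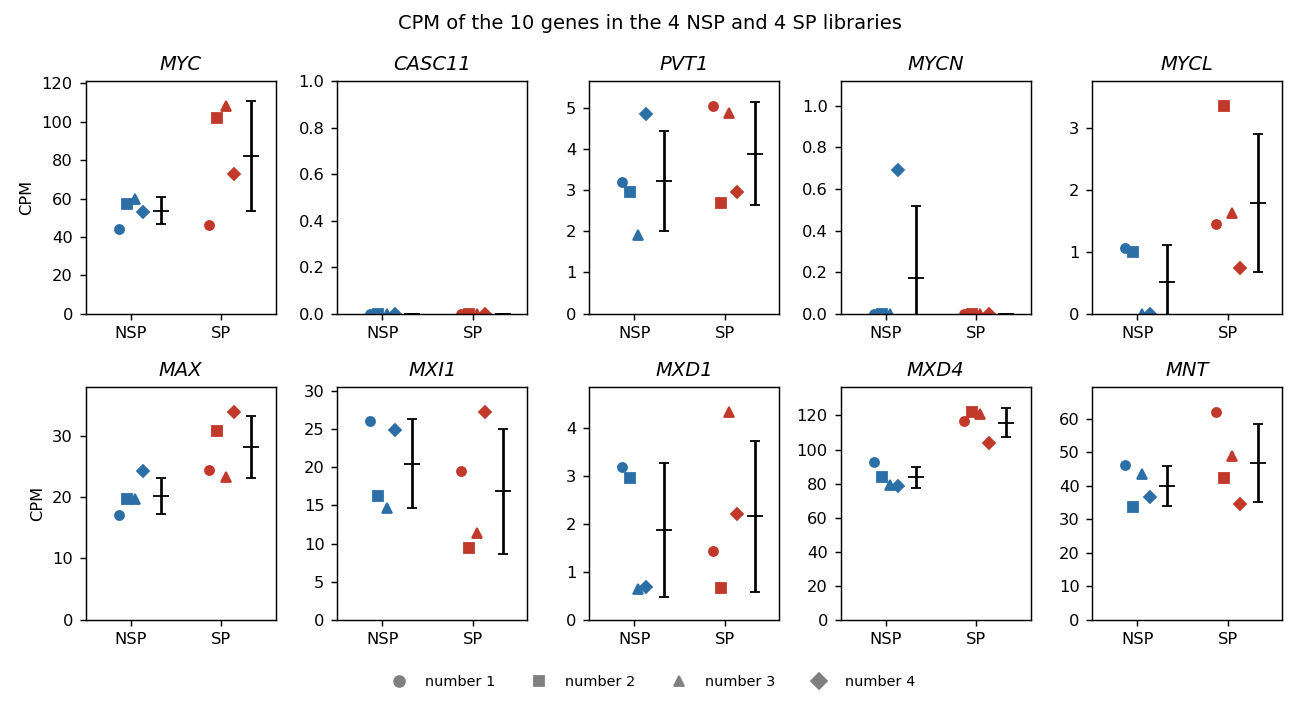
CPM of each of the 10 genes (vertical axes, each from 0) in the NSP (blue) and SP (red) libraries, with the replicate number as the marker shape and the mean ± SD of the 4 libraries as the black bar. MXD4 is the gene whose SP libraries, from 103.8 CPM up, all lie above its NSP libraries, from 92.6 CPM down, while SP replicate 1 of MYC, at 46.1 CPM, lies among the NSP libraries.

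The call of MYC depended on how the libraries were compared. Both groups carry replicate numbers 1 to 4, and same-numbered libraries deviated together over the tested genes, so the number was also fitted as a block. MYC was higher in the SP library of every number, by 0.061, 0.820, 0.842 and 0.446 on the log2(CPM + 1) scale. With the replicate block its log2 fold change was 0.58 (SE 0.16, adjusted p = 0.00533 by edgeR) and it was called higher. It was also called without SP replicate 1, at 0.82 (adjusted p = 0.0339), and was not called with any other single library left out, where the fold change was lowest without SP replicate 3, at 0.46. Number 1 held the lowest MYC value of both groups.

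CASC11, a long noncoding RNA transcribed from the minus strand next to MYC, had 0 counts in all 8 libraries. In the annotation it spans 128698588 to 128751233 on chromosome 8, and 194 bp of its exons cross exons of MYC. A count of 0 over a group (a floor of 3 counts over the group) allows a level of up to 0.493 CPM in SP and of up to 0.434 CPM in NSP cells, for counting error only. PVT1, the long noncoding RNA that is frequently gained together with MYC in tumours, lies downstream on the plus strand from 128806772 to 129199347. It had 7, 4, 9 and 4 counts in SP libraries 1 to 4 and 6, 6, 3 and 7 counts in NSP libraries 1 to 4. The groups overlapped throughout, at 3.89 ± 1.25 CPM in SP against 3.23 ± 1.21 CPM in NSP cells (SD, 4 libraries). PVT1 had too few counts for the main test, and without the filter on low counts its log2 fold change was 0.27 with a SE of 0.54, so a change of the size seen for MYC was not detectable at this depth.

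The MYC paralogs contributed little RNA. MYCN, best known for its amplification in neuroblastoma, had 1 count in all, in NSP replicate 4. MYCL, first found amplified in small cell lung cancer, had 2, 5, 3 and 1 counts in the SP libraries and 2, 2, 0 and 0 in the NSP libraries. Its mean was 1.79 ± 1.11 CPM in SP against 0.513 ± 0.593 CPM in NSP cells (SD, 4 libraries), and the ranges overlapped. Without a filter on low counts its log2 fold change was 1.52 (SE 0.93, adjusted p = 0.620 by edgeR).

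MAX, the obligate partner through which MYC and its antagonists all bind DNA, had 24.5, 30.8, 23.3 and 33.9 CPM in SP libraries 1 to 4 and 17.0, 19.8, 19.8 and 24.2 CPM in NSP libraries 1 to 4. SP replicate 3 lay below NSP replicate 4, and the SP library was the higher of each number. The log2 fold change was 0.48 (SE 0.22, 95% interval 0.017 to 0.94), and MAX was called neither in the comparison of the groups (adjusted p = 0.280) nor with the replicate block (adjusted p = 0.142, edgeR). Of its 6257 bp of exons, 16.1% cross exons of the other strand. The lncRNA ENSG00000259118, which shares 184 bp with MAX, held 1428 counts against 307 for MAX, and the strand setting of the counting is not named, so reads at the shared bases cannot be assigned to either gene with certainty.

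Among the antagonists, MXD4 was the gene with separate groups. MXD4 encodes a MAX dimerization protein that represses E-box genes and accompanies exit from proliferation. It had 116.7, 122.0, 120.7 and 103.8 CPM in SP libraries 1 to 4 and 92.6, 84.0, 79.1 and 78.8 CPM in NSP libraries 1 to 4. All 4 SP values exceeded all 4 NSP values (exact two-sided permutation test, p = 0.0286, the smallest p that this design allows), as was the case in either direction for 9.75% of all tested genes. The log2 fold change was 0.47 (SE 0.15, 95% interval 0.16 to 0.78, adjusted p = 0.0926 by edgeR), which is not a call, and with the replicate block it was 0.47 with an adjusted p of 0.0152, which is a call. No annotated exon of the other strand crosses the exons of MXD4, but which strand was counted was not tested. Leaving out single libraries kept its log2 fold change between 0.44 and 0.52 without a call.

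The remaining antagonists showed no separation of the groups. MNT, the broadly expressed repressor that opposes MYC in cycling and resting cells, had 62.0, 42.2, 48.7 and 34.6 CPM in SP libraries 1 to 4 and 46.3, 33.6, 43.4 and 36.6 CPM in NSP libraries 1 to 4. The groups overlapped, with SP replicate 1 the highest library and NSP replicate 2 the lowest. Its log2 fold change was 0.23 (SE 0.20, 95% interval -0.20 to 0.67, adjusted p = 0.635), and it was 0.075 without SP replicate 1 and 0.342 without SP replicate 4. On the other strand ENSG00000262456 shares 1065 bp, or 12.2% of the exon length of MNT, and held 3810 counts against 562 for MNT. Reads at the shared bases cannot be assigned to either gene with certainty. MXI1, also called MXD2, was the tested member with a negative value. It had 19.5, 9.38, 11.4 and 27.2 CPM in SP libraries 1 to 4 and 26.1, 16.3, 14.7 and 24.9 CPM in NSP libraries 1 to 4, so that SP replicate 4 was its highest library and SP replicate 2 its lowest. The log2 fold change of MXI1 was -0.30 (SE 0.32, 95% interval -0.98 to 0.38, adjusted p = 0.709, edgeR), and it ran from -0.628 without SP replicate 4 to -0.105 without SP replicate 2. ENSG00000228417 on the other strand shares 205 bp with MXI1 and held 137 counts, against 240 for MXI1. Its log2 fold change was 0.563 (adjusted p = 0.373 by edgeR), and reads at the shared bases carry the same uncertainty. MXD1, the founding MXD gene, had 1 to 8 counts in each library of both groups and was not tested.

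The E-box CACGTG, which MYC-MAX and the MAX antagonists all recognize and which reads the same on both strands, was looked up in the RefSeq promoters of GRCh38.p14 (windows of 300 bases around the gene start). Of 7 members with an entry, MXD4 and MNT held it, and so did MLX, the MAX-like factor described further on. Over all 35116 promoters searched it was present in 7.26%, and 8.77% of 27305 genes had it in at least 1 promoter. The promoters of the antagonist with separate groups, of the antagonist without, and of MLX are printed here from 5′ to 3′ on the gene's strand, all with CACGTG in capitals, to show where the network's own motif stands in them. They lie at chr4:2262060-2262359 (minus strand), chr17:2401011-2401310 (minus strand) and chr17:42566850-42567149 (plus strand) of GRCh38.p14.
MXD4: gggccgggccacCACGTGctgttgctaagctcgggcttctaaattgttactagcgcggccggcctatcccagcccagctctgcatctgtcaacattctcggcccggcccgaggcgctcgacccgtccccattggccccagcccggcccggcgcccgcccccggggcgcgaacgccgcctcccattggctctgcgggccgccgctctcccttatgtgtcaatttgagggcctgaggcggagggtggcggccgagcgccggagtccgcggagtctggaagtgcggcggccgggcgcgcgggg
MNT: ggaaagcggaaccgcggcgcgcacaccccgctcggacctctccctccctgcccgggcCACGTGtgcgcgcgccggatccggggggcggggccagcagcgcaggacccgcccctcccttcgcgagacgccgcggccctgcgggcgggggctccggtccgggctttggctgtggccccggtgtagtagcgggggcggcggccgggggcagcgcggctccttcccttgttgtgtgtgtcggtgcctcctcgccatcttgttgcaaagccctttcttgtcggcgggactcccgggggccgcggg
MLX: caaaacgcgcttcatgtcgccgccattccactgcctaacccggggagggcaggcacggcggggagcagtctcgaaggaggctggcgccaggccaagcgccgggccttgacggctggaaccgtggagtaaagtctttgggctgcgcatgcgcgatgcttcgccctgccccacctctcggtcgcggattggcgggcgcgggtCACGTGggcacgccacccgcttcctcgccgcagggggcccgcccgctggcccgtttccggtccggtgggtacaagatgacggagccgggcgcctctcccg
The motif begins at base 13 of the window in MXD4, at base 58 in MNT and at base 201 in MLX. MXD4 had a positive and MLX a negative log2 fold change, and the presence of the letters alone does not show that a factor was bound in these cells.

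Together, 0 of the 5 tested members were called higher and 0 lower in SP cells by edgeR, where 3.66% of the 9309 tested genes were called. Before adjustment (p under 0.05), 3 were higher (MYC, MAX and MXD4) and 0 lower, against 8.13% higher and 8.27% lower of all tested genes. DESeq2 and limma voom also called 0 of the members they tested. With the replicate block 2 of the 5 were called higher, MYC and MXD4, and 0 lower, where 5.89% of all tested genes were called higher. The median log2 fold change of the 5 members was 0.469 and that of all tested genes 0.015. The members were chosen with earlier results of these data known, so these shares are a description and no test of enrichment.

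**Figure D2:**
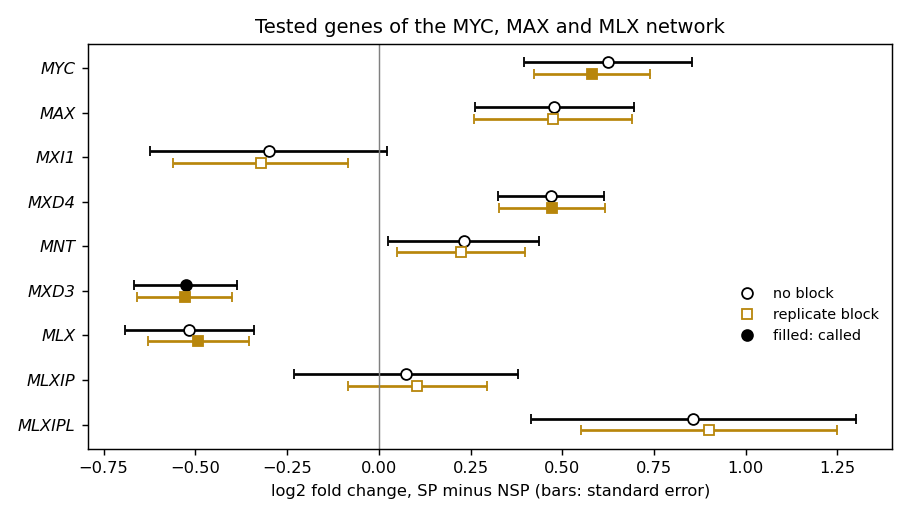
log2 fold change, SP minus NSP, with its SE for the tested genes of the network, without (circles) and with (squares) the replicate block, where a filled marker is a called gene. MYC at 0.62, MXD4 at 0.47 and MLX at -0.52 without the block are filled with the block alone, and MXD3 at -0.53 is filled in both fits.

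Per kb of annotated exon, MXD4 and MYC had the highest mean levels of the members in both groups. The exon length is merged over all transcripts of a later annotation than the one counted on, so levels per kb are approximate. Those of MAX, MNT and MXI1 also carry the uncertainty of strand. MXD4 had 16.9 ± 1.21 CPM per kb in SP cells and 12.2 ± 0.934 in NSP cells, and MYC had 13.5 ± 4.68 and 8.78 ± 1.13 (SD, 4 libraries). In the NSP libraries MXD4 lay above MYC without overlap, at 11.5 to 13.5 against 7.23 to 9.81 CPM per kb, and in the SP libraries the ranges overlapped, at 15.1 to 17.7 against 7.55 to 17.7. MNT, MAX and MXI1 followed at 5.39, 4.49 and 2.85 CPM per kb in SP cells and 4.59, 3.23 and 3.47 in NSP cells, with overlapping ranges between neighbours in the order of each group. MYCL, MXD1, PVT1, MYCN and CASC11 were at or below 0.36 CPM per kb in either group. The level of MYC per kb divided by the summed level of MXI1, MXD1, MXD4 and MNT was 0.273, 0.686, 0.688 and 0.496 in SP libraries 1 to 4 and 0.305, 0.486, 0.514 and 0.436 in NSP libraries 1 to 4. SP replicate 1 had the lowest ratio of all 8 libraries, and the ranges of the groups overlapped. The ratio depended on which antagonists were summed. MXD3, which is no member and is described further on, had 181 ± 18.2 CPM per kb in SP and 261 ± 16.2 in NSP libraries (SD, 4 libraries), far above the others, with the uncertainty of strand given there. With MXD3 in the sum, a choice made after the data were seen, the ratio was 0.0355, 0.082, 0.0965 and 0.0528 in SP libraries 1 to 4 and 0.0265, 0.0351, 0.0325 and 0.0309 in NSP libraries 1 to 4. The groups then no longer overlapped, by a gap of SP replicate 1 to NSP replicate 2 that lies in the last digit given. MYC over MAX was 3.07 ± 1.29 in SP and 2.75 ± 0.379 in NSP cells (SD, 4 libraries), again with overlap.

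The related genes outside the 10 members included the called gene of the network. MXD3, an MXD repressor expressed in S phase, had 876, 850, 749 and 958 CPM in SP libraries 1 to 4 and 1183, 1174, 1341 and 1244 CPM in NSP libraries 1 to 4. All SP libraries lay below all NSP libraries, and the log2 fold change was -0.53 (SE 0.14, adjusted p = 0.0495 by edgeR). The call lay at the threshold and was lost when any single library was left out, with adjusted p values of 0.0547 to 0.127, while the fold change stayed between -0.59 and -0.47. The level itself needs care. PRELID1, on the other strand, shares 1148 bp, or 24.2% of the exon length of MXD3, and MXD3 held 2883 counts per kb against 573 for PRELID1, 64.6 for MNT and 145 for MYC. PRELID1 had a log2 fold change of -0.286 (adjusted p = 0.385 by edgeR). Which strand these reads came from was not tested, so reads at the shared bases cannot be assigned to MXD3 or PRELID1 with certainty.

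MLX, the MAX-like partner of the glucose-sensing factors MLXIP and MLXIPL, had 140, 141, 154 and 147 CPM in the SP libraries and 161, 203, 289 and 181 CPM in the NSP libraries. The groups did not overlap, but the NSP libraries differed widely, with replicate 3 the highest. Its log2 fold change was -0.52 (SE 0.18, adjusted p = 0.128), and it was called lower with the replicate block, at -0.49 (adjusted p = 0.00634, edgeR). Without NSP replicate 3 the value was -0.32. PSMC3IP shares 775 bp with MLX on the other strand and held 3060 counts, against 2320 for MLX. MLXIP (log2 fold change 0.073, SE 0.30) and MLXIPL (0.86, SE 0.44, from 1 to 21 counts per library) were not called, and MGA, the largest MAX partner, had 32 counts in all and was not tested.

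**Figure D3:**
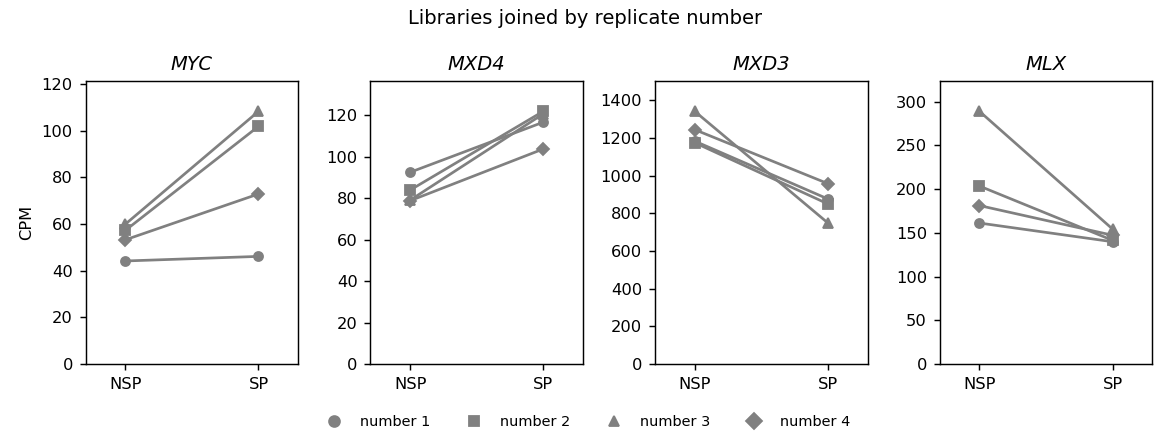
CPM (vertical axes from 0) of MYC, MXD4, MXD3 and MLX with the NSP and SP library of the same replicate number joined by a line. All 4 lines ascend for MYC and MXD4 and all 4 descend for MXD3 and MLX, and the line of number 1 is nearly level for MYC, from 44.2 to 46.1 CPM.

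Of 30 listed network genes and cofactors outside the members, 23 were tested, 0 were called higher and 1, MXD3, was called lower, where 2.03% of all tested genes were called lower. Before adjustment (p under 0.05), 0 were higher and 3 of the 23 lower, against 8.27% of all tested genes lower. The third of these beside MXD3 and MLX was RUVBL1, a helicase subunit of chromatin complexes that MYC recruits, at 1651 ± 183 CPM in SP against 2229 ± 201 CPM in NSP cells (SD, 4 libraries). Its log2 fold change was -0.43 (SE 0.15, adjusted p = 0.131). The replicate block called MXD3, MLX and RUVBL1 lower, where it called 652 of all 9309 tested genes lower, or 7.0%. The replicate block and DESeq2 both called RUVBL1 lower (adjusted p = 0.0126 and 0.0205). Its exons cross those of SEC61A1 and EEFSEC on the other strand. The median log2 fold change of the list was 0.047.

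Around MYC, 76 annotated genes whose lower coordinate lies within 3 Mb were in the table, 26 had a count and 10 were tested. None of the 10 was called in the comparison of the groups by edgeR (3.66% of all tested genes were), and DESeq2 and limma voom also called 0. Before adjustment (p under 0.05), 3 were higher, MYC itself, TRIB1 and LRATD2, and 0 lower, against 8.13% and 8.27% of all tested genes. MYC is counted among these 10 and among the members, so the 2 tallies are not separate. The replicate block called 3 of the 10 higher, MYC, TRIB1 and LRATD2, against 5.89% of all tested genes. TRIB1, a pseudokinase that promotes the degradation of C/EBP factors, lies at -2305.1 kb from MYC, measured between the lower coordinates of the genes. It had 28.1, 50.3, 45.5 and 42.0 CPM in SP libraries 1 to 4 and 32.98, 17.3, 26.1 and 22.8 CPM in NSP libraries 1 to 4, with number 1 the single pair in which SP was lower. Its log2 fold change was 0.74 (SE 0.24, adjusted p = 0.101, and 0.00474 with the block). LRATD2, at -1183.0 kb, had 15.9, 22.1, 17.3 and 15.5 CPM in SP and 12.8, 5.43, 12.1 and 10.4 CPM in NSP libraries 1 to 4. All its SP libraries lay above the NSP libraries (log2 fold change 0.81, SE 0.29, adjusted p = 0.155, and 0.0283 with the block, edgeR). LRATD2 shares 1409 bp of exon with PCAT1 on the other strand, which had 0 counts.

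On the other side, the nearest tested genes beyond PVT1 were the lncRNA ENSG00000254317 and CYRIB, which cross each other on opposite strands 2096.9 and 2104.2 kb after MYC. They had log2 fold changes of -0.087 (SE 0.36) and 0.37 (SE 0.25) and were not called. The cancer-associated long noncoding RNAs of the gene-poor interval before MYC were at or near 0, with 0 counts for PCAT1 and CASC19 and 1 count for CASC8.

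**Figure D4:**
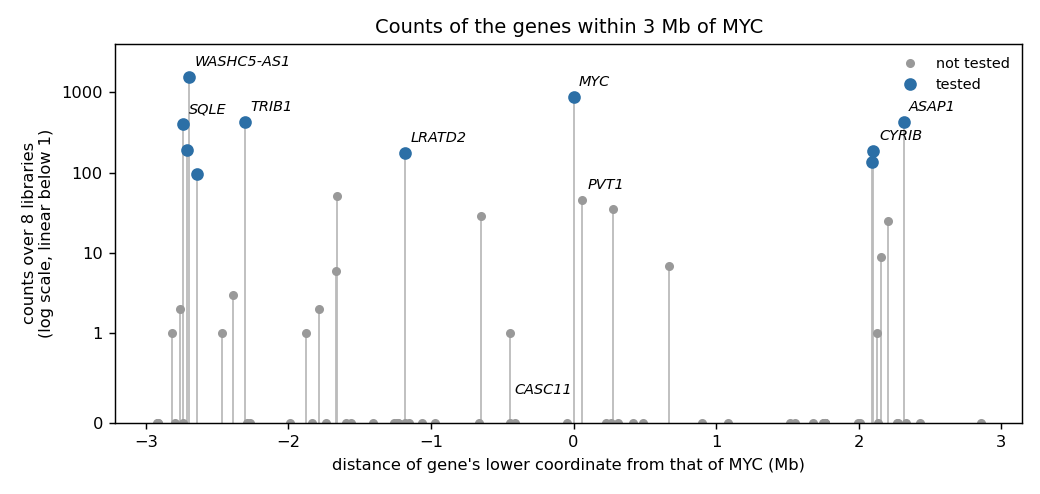
Counts summed over the 8 libraries (vertical axis, log scale and linear below 1) of the 76 genes within 3 Mb of MYC, against the distance of the gene's lower coordinate from that of MYC in Mb. Blue points are the 10 tested genes, and grey points had too few counts. MYC with 885 counts stands between PVT1 with 46 and CASC11 with 0.

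The genes that MYC is known to induce were examined as 5 lists. All target and cofactor lists were chosen with earlier results of these data known, so their shares beside all tested genes are descriptive. Of 89 listed genes, 73 were tested, and by edgeR 0 were called higher and 1 lower in SP cells, against 1.63% higher and 2.03% lower of all tested genes. Before adjustment (p under 0.05), 2 were higher and 4 lower, which are smaller shares than the 8.13% and 8.27% of all tested genes. DESeq2 and limma voom also called 0 higher. The median log2 fold change of the 73 genes was -0.035, against 0.015 for all tested genes, and 33 of them had positive values. The E-box was present in a promoter of 31 of the 75 induced genes with an entry (41.3%), against 8.77% of all 27305 genes. It was present for 15.4% of the 13 repressed genes with an entry and for 16.7% of the 24 network genes and cofactors with an entry. The induced genes were listed as known MYC targets, and the 27305 genes were not filtered by their counts, so these shares are descriptive.

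The ribosome biogenesis list, which covers nucleolar proteins and RNA polymerase I factors, had 28 of 32 genes tested and none called. Its log2 fold changes ran from -0.415 to 0.626 with a median of -0.019. Before adjustment (p under 0.05) 0 were higher and 2 of the 28 lower, a share near the 8.27% of all tested genes. The nucleolar protein nucleolin, NCL, had 201 ± 16.5 CPM in SP against 255 ± 27.6 CPM in NSP cells (log2 fold change -0.35, SE 0.14, adjusted p = 0.229). NOP16, the gene of the list with the most counts, had a log2 fold change of -0.26 (SE 0.17, adjusted p = 0.496, edgeR), and its exons cross those of ARL10 and HIGD2A.

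In the list of nucleotide and polyamine synthesis, 13 of 15 genes were tested and the median was -0.179. TYMS, which encodes thymidylate synthase, was called lower. It had 95.8, 84.4, 95.3 and 107.5 CPM in SP libraries 1 to 4 and 144, 129, 154 and 138 CPM in NSP libraries 1 to 4, without overlap. The log2 fold change was -0.56 (SE 0.15, adjusted p = 0.0431 by edgeR). Of its 2421 bp of exons, 47.9% cross exons of ENOSF1 and TYMSOS on the other strand, so reads at the shared bases cannot be assigned with certainty. The call was lost when any single library was left out, with adjusted p values of 0.0508 to 0.139, while the log2 fold change stayed between -0.63 and -0.51. The spermidine synthase gene SRM, with the most counts of the list, had a log2 fold change of -0.060 (SE 0.16).

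In the list of metabolism and mitochondria, 17 of 20 genes were tested, 12 had positive values and none was called. The median was 0.100. PKM and ENO1, glycolytic enzymes and the genes of the list with the most counts, had log2 fold changes of 0.025 (SE 0.15) and 0.25 (SE 0.14). ENO1 did not overlap between the groups, at 1153 ± 83.8 CPM in SP against 969 ± 89.6 CPM in NSP cells (SD, 4 libraries). The replicate block called LDHA, lactate dehydrogenase (log2 fold change 0.447, adjusted p = 0.0124), and HK2, hexokinase 2 (0.549, adjusted p = 0.0451), higher, and PHGDH of serine synthesis lower (-0.567, adjusted p = 0.00703, edgeR). These calls, 3 of 17 genes, stand against 12.9% of all tested genes called with the block, and LDHA, HK2 and PHGDH were chosen after their values were seen.

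The cell cycle list (7 of 12 genes tested, median -0.037) and the translation list (8 of 10 tested, median -0.081) had none called. CDK4, the cyclin D kinase, had a log2 fold change of 0.15 (SE 0.14) and E2F1, a driver of S phase entry, -0.26 (SE 0.16). Of the exon length of CDK4, 44.2% crosses TSPAN31 on the other strand. The initiation factors EIF4G1 and EIF3B had -0.088 (SE 0.17) and 3.0e-04 (SE 0.14), so that EIF3B, at 309.8 ± 41.3 CPM in SP against 309.9 ± 20.9 CPM in NSP cells (SD, 4 libraries), had means that differed by less than its spread.

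Of 19 genes known to be repressed by MYC, 13 were tested, 2 were called higher and 0 lower, where 1.63% of all tested genes were called higher. The unadjusted p was under 0.05 for 4 higher and 4 lower of the 13 genes, against 8.13% and 8.27% of all tested genes, and the median log2 fold change was 0.225. This list too was chosen with earlier results of these data known, so the shares are no test of enrichment. GAS1, a growth arrest gene whose product is a coreceptor for Hedgehog ligands, had 47.6, 48.3, 45.5 and 42.7 CPM in SP libraries 1 to 4 and 5.32, 14.8, 9.57 and 11.8 CPM in NSP libraries 1 to 4. The groups lay far apart, and the log2 fold change was 2.14 (SE 0.25, adjusted p = 4.06e-04 by edgeR). COL1A2, a chain of type I collagen, had 69.9, 125.3, 67.7 and 67.7 CPM in SP libraries 1 to 4 and 6.38, 33.1, 29.98 and 6.91 CPM in NSP libraries 1 to 4. SP replicate 2 stood above the other SP libraries, and without it the log2 fold change was 1.82 in place of 2.09 (SE 0.40, adjusted p = 0.0085 by edgeR).

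The cyclin-dependent kinase inhibitors of this list went in different directions without a call. CDKN2B, which encodes p15, had 157 ± 25.6 CPM in SP against 109 ± 7.24 CPM in NSP cells, without overlap (log2 fold change 0.53, SE 0.16, adjusted p = 0.0751). CDKN1A, which encodes p21, had 4.99 ± 2.62 CPM in SP against 11.3 ± 5.03 CPM in NSP cells (SD, 4 libraries) and a log2 fold change of -1.14 (SE 0.42, adjusted p = 0.176, edgeR). With the replicate block CDKN2B was called higher and CDKN1A, GADD45A and ITGB1 were called lower, beside the calls of GAS1 and COL1A2. That makes 3 higher and 3 lower of 13, against 5.89% and 7.0% of all tested genes. CDKN2B, CDKN1A, GADD45A and ITGB1 were picked after their values were seen. COL3A1 and DDIT3, the genes of the list with the most counts, had log2 fold changes of 0.28 (SE 0.20) and -0.11 (SE 0.27). Of the exon length of DDIT3, 31.6% crosses MARS1 and MBD6 on the other strand.

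**Figure D5:**
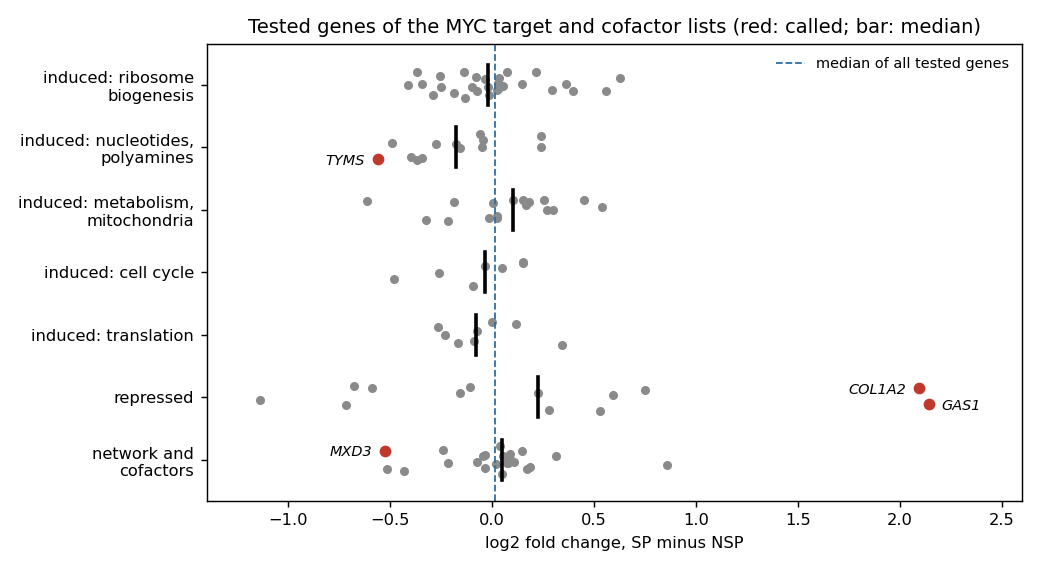
log2 fold change, SP minus NSP, of the tested genes of each list (points, red where called), with the median of the list as a black bar and the median of all tested genes, 0.015, as the dashed line. The 5 induced lists lie around 0 with TYMS called lower, and GAS1 and COL1A2 stand apart at 2.14 and 2.09 in the repressed list, while MXD3 is the called gene among network genes and cofactors.

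The genes whose profile over the 8 libraries was nearest to that of MYC were TNS3, FAM43A, ARHGAP17, MX2 and LMO7. Likeness was the root mean square difference of centred log2(CPM + 1) values over the 8 libraries, which share their depth with MYC, among 6068 other protein-coding genes of at least 10 CPM on average. It was 0.143 for TNS3, which encodes the focal adhesion protein tensin 3, and 0.166, 0.184, 0.184 and 0.193 for the next 4, against a median of 0.530 over all compared genes. TNS3 had 69.9, 113.9, 146.2 and 83.2 CPM in SP libraries 1 to 4 and 53.2, 77.5, 81.6 and 62.2 CPM in NSP libraries 1 to 4. Since the SP and NSP difference is a part of the profile by which it was picked, its values are a description and no test of it is given.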

How the data were processed

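RNA-seq of 4 SP and 4 NSP libraries of J82 was used. The deposited values are raw counts per gene without normalization, which the authors made from single-end reads of 50 bp with STAR on hg19 and featureCounts on gencode version 19. Tool versions, the strand setting and the handling of multi-mapping reads are not given in the sources used here, so genes with an exon on the other strand carry an uncertainty. Per kb of exon, the other-strand partner held more counts than MNT (3577 against 64.6), MLX (1187 against 545) and MXI1 (291 against 40.6). For MAX (49.1), ENSG00000259118 held more (1037), and FNTB (19.6) and CHURC1-FNTB (0) fewer. CASC11 held fewer than MYC (0 against 145) and PRELID1 fewer than MXD3 (573 against 2883). Which strand was counted was not tested, and it bears on every gene, with or without such an overlap. Promoters on chromosome 8 were not searched.

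Symbols, positions and exon lengths came from GENCODE version 44 mapped to GRCh37 (55538 genes matched by identifier), a later annotation than the one counted on. All genes were fitted with edgeR 4.0.16 in R 4.3.3 (TMM, filterByExpr with a minimum count of 10, glmQLFit, glmQLFTest, no covariate). A call needed a Benjamini-Hochberg adjusted p under 0.05 over all tested genes and a fold change over 1.3, the cutoff of the study. The alternatives were DESeq2 1.42.0, limma 3.58.1 voom, other normalizations and filters, the replicate block and leaving out each library. On simulated counts of 9309 genes the SP against NSP fit recovered 100% of 4-fold and 63% of 2-fold changes, with 7 false calls among 172.

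Correlations of the deviations of same-numbered libraries from their group means were 0.38, 0.203, 0.322 and 0.321, all over 0.1, so the numbers count as pairing the libraries. The main fit, its intervals and the permutation tests are nevertheless unpaired, as in the design, and the fit with the replicate block is given beside a result where it changes the call. Replicates differed by more than sampling noise (chi-square per degree of freedom 4.87 to 10.96), so each was counted once. Values per group are mean ± SD, and standard errors are the log2 fold change over the square root of F. Named genes were all members, the called network and list genes, the 2 genes with the most counts of each list, the nearest tested genes at the locus and the 5 nearest profiles, and other genes were chosen after their values were seen. The members and lists were chosen with earlier results of these data known. No annotated row was found in the table for 1 listed endothelial marker, PECAM1.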

Additional observations from a re-analysis of the deposited data

Results flagged for a closer look

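Among 64 sets of 4 same-group values, 3 held a value set apart from the rest by Dixon's criterion, and 3.2 would be flagged by chance at 1 in 20. For COL1A2 in SP cells it was replicate 2, at 125.3 CPM, whose gap to the nearest library was 0.962 of the range. For DDIT3 in SP cells it was replicate 3, at 86.1 CPM, with a gap of 0.894. For ENSG00000254317, which crosses CYRIB, it was SP replicate 2, at 7.37 CPM, with a gap of 0.859. No member of the MYC network was flagged.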

How the results depend on the processing

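MAX, MXI1 and MNT kept their direction and stayed uncalled under all 15 alternatives, with adjusted p values of 0.142 to 0.926. MYC and MXD4 kept their direction under all 15, with calls for MYC under the replicate block and without SP replicate 1 and for MXD4 under the replicate block. MYC ranged from 0.461 to 0.819, MXD4 from 0.436 to 0.516, MAX from 0.373 to 0.565, MXI1 from -0.628 to -0.105 and MNT from 0.075 to 0.342 with single libraries left out. GAS1 and COL1A2 stayed called under all 15 alternatives.

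The replicate block called 2 members and 3 genes of the locus higher in place of 0, 3 network and cofactor genes lower in place of 1, 2 induced genes higher (0 without it), 2 induced genes lower (1 without it) and 3 repressed genes lower in place of 0. MYC is in both the member and the locus count. Over all genes the calls with the block numbered 548 higher and 652 lower, against 152 and 189. Upper-quartile normalization left 0 network genes and 0 induced genes lower, since MXD3 (adjusted p = 0.0562) and TYMS (adjusted p = 0.0516) passed to the other side of the threshold. DESeq2 called 2 network genes lower. Without a filter on low counts 0 network genes and 1 repressed gene, ITGB1, were called lower. With single libraries left out, the counts were 0 to 1 for members higher, 0 to 1 for genes of the locus higher, 0 to 0 for network genes lower and 0 to 0 for induced genes lower. The fewest calls over all genes, 69 higher and 89 lower, were left without NSP replicate 2. The causes were not tested. Sign changes occurred among uncalled values near 0. EIF3B turned to -0.009 with DESeq2 size factors, -0.019 with DESeq2, -0.020 with voom and without a filter, and -0.006 with at least 10 counts in every library and with the replicate block, and ENSG00000254317 to 0.104 with voom. With single libraries left out, the log2 fold change ran from -0.145 to 0.250 for MLXIP, -0.295 to 0.311 for ENSG00000254317, -0.038 to 0.108 for PKM, -0.141 to 0.058 for SRM, -0.258 to 0.003 for EIF4G1, -0.079 to 0.071 for EIF3B and -0.298 to 0.123 for DDIT3. The depth limits PVT1, MYCL, MXD1, MYCN and CASC11, which had under 10 counts in every library. With MXD3 added to the summed antagonists, chosen after the data were seen, the mean ratio of MYC to them was 0.0667 in SP and 0.0312 in NSP cells in place of 0.536 and 0.435. MXD3 made up most of that sum, at 181 CPM per kb in SP and 261 in NSP cells, and carries the uncertainty of strand. The lowest SP ratio was 0.0355 and the highest NSP ratio 0.0351.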
